A study of Mus musculus with 16 samples.

Results

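The genes described here encode hormones that the liver releases into blood, together with the transcription factor that drives several of them: Fgf21, Gdf15, Inhbe, Angptl6, Fgl1, Enho, Fetub, Ahsg, Lect2 and Creb3l3. They were taken by exact gene name, and all 10 were found among the 25803 genes listed in the deposited tables and among the 14488 genes with enough counts to be tested. The 16 libraries hold mRNA of whole liver from males kept on a high-fat diet (HFD) for 12 weeks. 4 libraries came from control mice fasted for 16 h (S40 to S43) and 4 from LKO mice, whose liver lacks Cpt1a, after the same fast (S44 to S47). A further 4 came from control mice refed for 6 h after that fast (S48 to S51) and 4 from refed LKO mice (S52 to S55). Every group shared the sex, the diet and the 16 h fast, and no group was fed chow or left unfasted. Because of the 6 h of food, the clock time of collection or of the fast's start differed between fasted and refed mice. An effect of that time cannot be told apart from an effect of refeeding. The strain, the age and the Cre driver of the knockout are not given in the sources used here. The labels number the livers of a group but do not say that each came from a separate mouse, so the p-values measure only the spread between these libraries.

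Proteins that the liver secretes in response to food and to stress are often called hepatokines. FGF21 rises in fasting, protein restriction and mitochondrial stress and acts through FGF receptors with the co-receptor beta-Klotho, and GDF15 is a stress hormone that curbs appetite through a receptor in the hindbrain. CPT1A, the enzyme removed in LKO liver, loads long-chain fatty acids onto carnitine so that mitochondria can burn them. Fatty acids are also ligands of the nuclear receptor PPARA, a regulator of Fgf21. CREB3L3, also called CREBH, is a membrane-bound factor of hepatocytes that is cut free on fasting and acts with PPARA on Fgf21.

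Libraries held 14.7 to 24.6 M (mega) counts. Levels are given as CPM, the counts of a gene for each M counts of its library after TMM scaling, and changes as log2 fold changes fitted with edgeR over all 16 libraries. A change is called where the edgeR quasi-likelihood test gave a Benjamini-Hochberg adjusted p under 0.05 over the 14488 genes tested. Cpt1a itself stood at 378 to 556 CPM in fasted control and 86.1 to 126 CPM in fasted LKO libraries, and at 319 to 620 CPM in refed control and 39.9 to 75.2 CPM in refed LKO libraries, so every library matched its genotype label. All 8 hepatocyte markers examined, among them Alb and Apoa1, were detected and tested, and together they made up 59308 to 88693 CPM of each library.

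The 10 genes spanned a wide range of abundance. Per kilobase of gene length, Ahsg had the highest level of the 10, at 3198 ± 278 CPM per kb in fasted control liver (SD, n = 4), and Enho and Angptl6 were among the lowest, at 8.03 ± 3.94 and 9.87 ± 1.74 CPM per kb. Together the 10 genes took 0.642 to 0.996% of a library's counts, and Ahsg alone supplied 66.3 to 82.6% of that share. They also differed in how steady they were between livers of one group. The SD of log2 CPM within groups was 1.01 for Fgf21, 0.74 for Gdf15 and 0.67 for Enho, which placed these 3 at the percentiles 98.9, 95.7 and 93.5 of all genes tested. It was 0.15 for Ahsg, 0.17 for Fetub and 0.17 for Creb3l3, against a median of 0.23 over all genes tested.

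**Figure D1:**
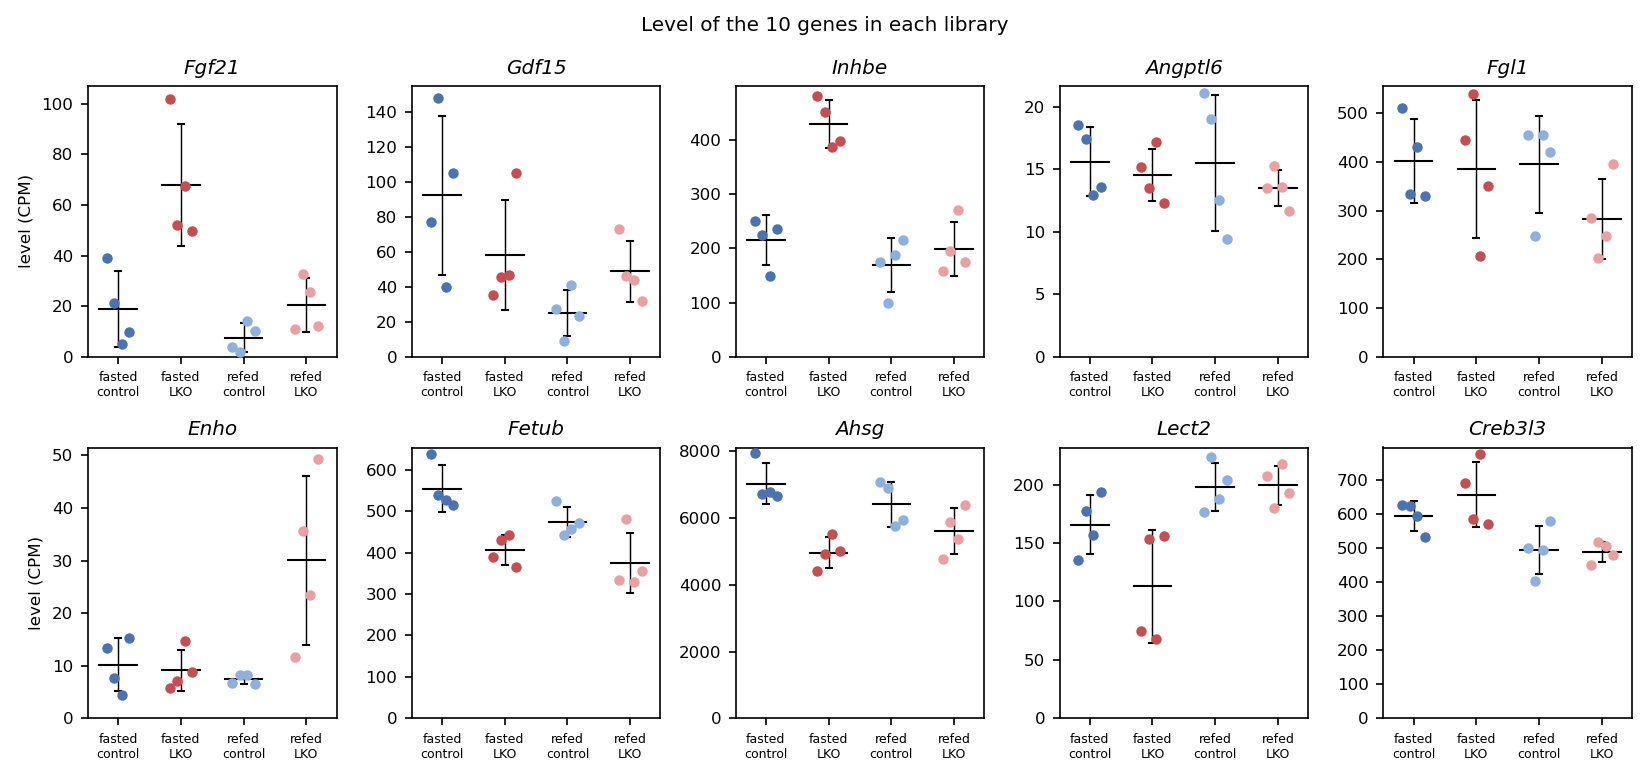
Level in CPM (vertical axis, linear, starting at 0) of each of the 10 genes in the 16 libraries, by group. Points are libraries, the horizontal bar is the group mean and the error bar 1 SD (n = 4); the fasted LKO libraries stand apart from all others for Fgf21 and Inhbe, and 3 of the 4 refed LKO libraries for Enho.

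In fasted liver, Fgf21 and Inhbe were higher in LKO than in control, by 3.58-fold and 1.99-fold, and the fetuin genes Ahsg and Fetub were lower, by 1.41-fold and 1.36-fold. In whole liver, fewer cells of a type and less RNA per cell cannot be told apart. These were 4 of the 10 genes, where 12.2% of all genes tested were called. In refed liver only Enho of the 10 was called between genotypes, 4.02-fold higher in LKO, where 3.63% of all genes were called. Refeeding lowered Gdf15 in control liver by 3.66-fold, the only call among the 10 there, where 15.4% of all genes were called. In LKO liver, refeeding lowered Fgf21, Inhbe and Creb3l3 and raised Enho and Lect2, 5 of the 10 genes, where 18.1% of all genes were called. Libraries of the 2 groups did not overlap for 4 of the 10 genes between fasted genotypes (16.9% of all genes tested), 1 between refed genotypes (11.7%), 0 on refeeding in control (20.4%) and 4 on refeeding in LKO (20.6%).

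**Figure D2:**
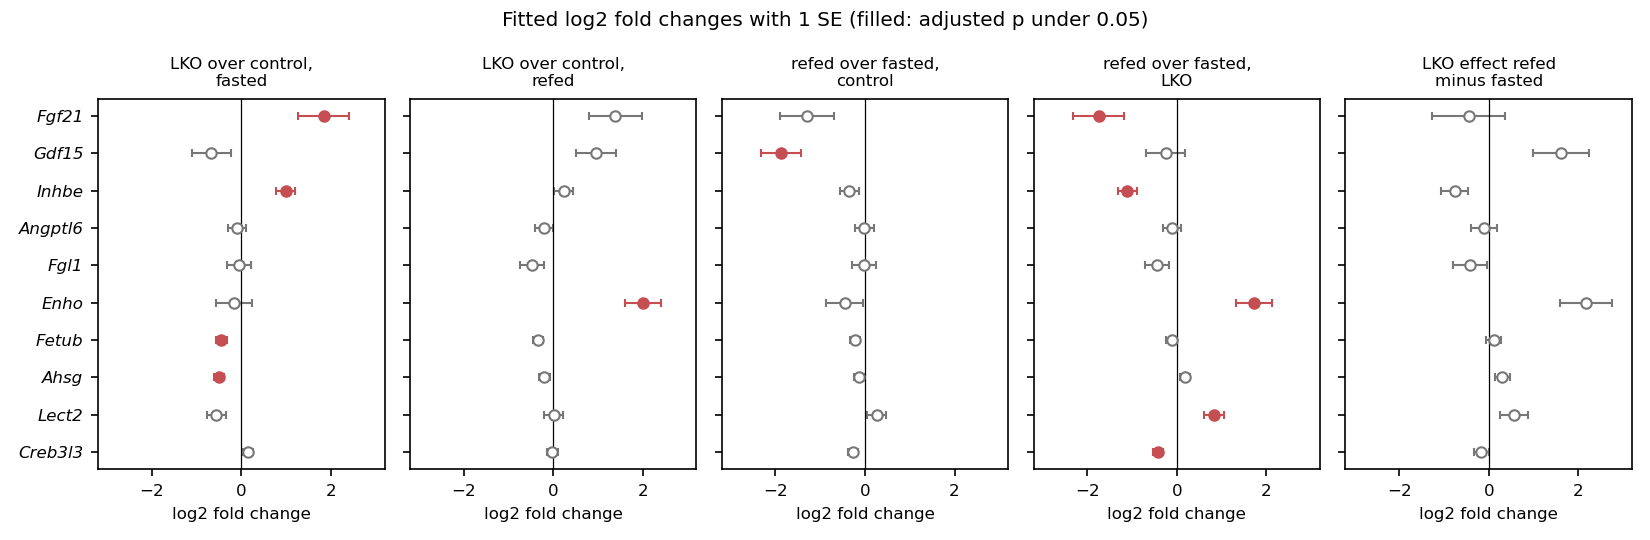
Fitted log2 fold change (horizontal axis) with 1 SE for each of the 10 genes in the 4 two-group comparisons and, at the right, the difference between the genotype effects in refed and fasted liver. Filled points have an adjusted p under 0.05; there are 4, 1, 1, 5 and 0 of them from left to right.

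To show the DNA in front of Fgf21, Inhbe and Gdf15, the 3 stress-responsive hormone genes called here, the bases before their transcript starts are printed from the RefSeq promoter table of build GRCm38.p6, an older build than the mm39 named for the deposited counts. The table held windows of 300 bases, 250 before the start and 50 after it, for 8 of the 10 genes in 11 windows. Enho and Fgl1 had none. The 250 bases before the start are printed, 5′ to 3′ along the gene's strand, all from minus-strand genes: Fgf21 (chr7:45615491-45615740), Inhbe (chr10:127351849-127352098) and the first of 2 windows of Gdf15 (chr8:70632457-70632706). Capitals mark matches on either strand to TGATGNAA, to CACGTG or to a loose form of DR1, the direct repeat bound by PPARA with RXR.
Fgf21: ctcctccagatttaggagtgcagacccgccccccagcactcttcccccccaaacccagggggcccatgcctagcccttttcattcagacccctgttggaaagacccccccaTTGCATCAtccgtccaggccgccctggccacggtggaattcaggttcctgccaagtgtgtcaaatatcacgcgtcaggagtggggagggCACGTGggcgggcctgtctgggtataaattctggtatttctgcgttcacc
Inhbe: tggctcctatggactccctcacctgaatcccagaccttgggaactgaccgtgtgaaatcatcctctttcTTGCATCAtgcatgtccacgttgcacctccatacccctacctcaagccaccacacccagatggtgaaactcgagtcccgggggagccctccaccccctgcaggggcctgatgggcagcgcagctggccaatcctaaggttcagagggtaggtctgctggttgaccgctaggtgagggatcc
Gdf15: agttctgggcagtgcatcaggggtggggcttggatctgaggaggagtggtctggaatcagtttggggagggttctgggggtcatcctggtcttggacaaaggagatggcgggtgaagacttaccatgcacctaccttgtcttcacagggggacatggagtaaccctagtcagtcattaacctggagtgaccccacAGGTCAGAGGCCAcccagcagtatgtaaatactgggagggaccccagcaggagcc
TGATGNAAT is the composite C/EBP-ATF element to which ATF4 can bind. It occurred in 0.965% of the 32851 windows of the table and, among the 10 genes, only in that of Fgf21, where it lies on the opposite strand 140 bases before the start as attgcatca. The same 8 letters without the last base, TGATGNAA, were searched only after the sequences had been seen. They occurred in 3.97% of windows, and in those of Fgf21 (139 bases before the start) and Inhbe (181 bases before the start) as ttgcatca. The E-box CACGTG occurred in 7.15% of windows, in that of Fgf21 (50 bases before the start) and in the second window of Gdf15 (83 bases before the start). DR1 with a free base inside each repeat occurred in 0.381% of windows and in the first window of Gdf15 as aggtcagaggcca (55 bases before the start). DR1 without those free bases (0.0396% of windows) and TGACGT, a part of the cAMP response element (7.51% of windows), were in none of the 11 windows. Both strands were searched, TGATGNAA lies inside TGATGNAAT and strict DR1 inside the loose form, and a match of letters is a description of these windows only.

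Fgf21 (ENSMUSG00000030827, minus strand, chr7:45263310-45264914 in the coordinates of the deposited tables) was highest in fasted LKO liver. Its levels in S40 to S43, the fasted controls, were 39.1, 21.1, 5.18 and 9.88 CPM, and in fasted LKO libraries S44 to S47 they were 102, 52.1, 67.4 and 49.8 CPM. Every fasted LKO library lay above every fasted control library, and the control libraries themselves spread over 7.55-fold. The means were 18.8 ± 15.1 and 67.8 ± 24.1 CPM (SD, n = 4), and the difference of 1.84 on the log2 scale (SE 0.57) had an edgeR adjusted p of 0.0453. That call lay near the threshold and depended on the libraries included. It was lost without S41 (edgeR adjusted p = 0.0854), S42 (0.11), S43 (0.12), S44 (0.130) or S46 (0.0801), held in 3 of 8 such fits, and without S40, the highest control, the log2 difference was 2.49. In a fit of the 8 fasted libraries alone its edgeR adjusted p was 0.052. Of the 7 settings that kept every library of the comparison, that one lost the call and 6 kept it.

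After refeeding, Fgf21 stood at 3.90, 1.91, 14.3 and 10.3 CPM in control libraries S48 to S51 and at 10.9, 32.8, 25.5 and 12.3 CPM in LKO libraries S52 to S55. The refed groups overlapped, with S50 above S52 and S55. The refed difference between genotypes was 1.39 (SE 0.60, edgeR adjusted p = 0.218), and the change on refeeding in control liver was -1.30 (SE 0.60, edgeR adjusted p = 0.154), so neither was called. In LKO liver Fgf21 fell on refeeding by 1.74 on the log2 scale (SE 0.57, edgeR adjusted p = 0.0431), with every refed library below every fasted one. This call too was lost without S44 (edgeR adjusted p = 0.118), S45 (0.0515), S46 (0.0685), S52 (0.122), S54 (0.0622) or S55 (0.120). The genotype effects on Fgf21 in the refed and the fasted state differed by -0.45 (SE 0.81, edgeR adjusted p = 0.822), less than the error of that difference.

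Inhbe (ENSMUSG00000047492, minus strand, chr10:127184726-127190280) encodes the beta E subunit that pairs with itself to form activin E, a liver product that acts on fat tissue. Its levels were 252, 225, 150 and 237 CPM in fasted control libraries S40 to S43, and 481, 452, 388 and 398 CPM in fasted LKO libraries S44 to S47. In refed control libraries S48 to S51 they were 175, 99.4, 188 and 216 CPM, and in refed LKO libraries S52 to S55 they were 158, 195, 271 and 174 CPM. The 4 fasted LKO libraries lay above the 12 others without overlap, and the remaining groups overlapped one another. In fasted liver Inhbe was higher in LKO by 0.99 on the log2 scale (SE 0.22, edgeR adjusted p = 0.00735), and on refeeding in LKO it fell by 1.11 (SE 0.22, edgeR adjusted p = 0.00228). Both calls held in all 8 fits that left out 1 library, with an edgeR adjusted p of at most 0.0267 and 0.0106. Its genotype difference in refed liver was 0.23 (SE 0.21, edgeR adjusted p = 0.618) and its change on refeeding in control liver -0.35 (SE 0.21, edgeR adjusted p = 0.299). The genotype effect in refed liver minus that in fasted liver, -0.76 (SE 0.30), had an edgeR adjusted p of 0.215 and was not called.

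Gdf15 (ENSMUSG00000038508, minus strand, chr8:71082043-71085106) differed from Fgf21 and Inhbe in being highest in fasted control liver. In S40 to S43, the fasted controls, it measured 76.8, 148, 40 and 105 CPM, against 35.6, 45.4, 46.6 and 105 CPM in fasted LKO libraries S44 to S47. After refeeding it stood at 27.5, 8.82, 40.8 and 23.4 CPM in control libraries S48 to S51 and at 72.9, 46.4, 43.9 and 31.9 CPM in LKO libraries S52 to S55. In control liver only the lowest fasted library, S42, fell within the refed range, just under S50. Gdf15 fell on refeeding in control liver by 1.87 on the log2 scale (SE 0.45, edgeR adjusted p = 0.0117), and this call held in all 8 fits without 1 library, at an edgeR adjusted p of at most 0.0356. In LKO liver the change on refeeding was -0.25 (SE 0.44, edgeR adjusted p = 0.743). The genotype difference was -0.67 in fasted liver (SE 0.44, edgeR adjusted p = 0.355) and 0.95 in refed liver (SE 0.45, edgeR adjusted p = 0.267). The difference of these 2 effects was 1.62 (SE 0.62) with an edgeR adjusted p of 0.199, so a response that differs between genotypes was not called for Gdf15.

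Enho (ENSMUSG00000028445, minus strand, chr4:41638144-41640324) encodes adropin, a small secreted peptide tied to fuel choice and glucose handling. Fasted controls S40 to S43 held 13.3, 7.65, 4.49 and 15.3 CPM, and the other fasted group had 5.84, 7.07, 14.7 and 8.89 CPM in fasted LKO libraries S44 to S47. It was 6.64, 8.29, 8.24 and 6.58 CPM in refed control libraries S48 to S51 and 11.7, 35.6, 23.4 and 49.2 CPM in refed LKO libraries S52 to S55. All refed LKO libraries lay above all refed control libraries, while S52 lay among the fasted ones. Enho was higher in refed LKO than in refed control liver by 2.01 on the log2 scale (SE 0.41, edgeR adjusted p = 0.0142), a call that was lost without S48 (edgeR adjusted p = 0.0512) or S55 (0.0522). It rose on refeeding in LKO liver by 1.72 (SE 0.40, edgeR adjusted p = 0.00728) and this held in all 8 fits without 1 library. In fasted liver the genotype difference was -0.17 (SE 0.41, edgeR adjusted p = 0.842). The genotype effect was 2.17 higher in the refed than in the fasted state (SE 0.57), with an edgeR adjusted p of 0.0768 and, with DESeq2, an adjusted p of 0.0266. With limma-voom the adjusted p was 0.1585, and edgeR called it in 0 of 16 fits without 1 library. Of the 3 tools only DESeq2 called any of the 10 genes for that difference, and it called Enho alone. There DESeq2 called 3.22% of all genes and edgeR 0.538%. At an unadjusted p under 0.05, edgeR gave 3 of the 10, Gdf15, Inhbe and Enho. The share of all genes at that looser threshold was not counted, so those 2 percentages are no measure for it.

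Ahsg (ENSMUSG00000022868, plus strand, chr16:22710027-22718199) and Fetub (ENSMUSG00000022871, plus strand, chr16:22737084-22758528) encode fetuin-A and fetuin-B, cystatin-family plasma proteins whose genes are neighbours. Fetuin-A inhibits the insulin receptor and binds mineral, and fetuin-B is needed for fertilization. Ahsg measured 7939, 6736, 6768 and 6664 CPM in fasted controls S40 to S43, against 4412, 4914, 5516 and 5023 CPM in fasted LKO libraries S44 to S47. Every fasted LKO library was below every fasted control library, and the log2 difference of -0.50 (SE 0.11, edgeR adjusted p = 0.00908) held in all 8 fits without 1 library. In refed liver Ahsg ranged from 5753 to 7079 CPM in control and from 4781 to 6406 CPM in LKO, with a log2 difference of -0.19 (SE 0.11, edgeR adjusted p = 0.384).

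Fetub showed the same direction at a lower level. Fasted controls S40 to S43 measured 637, 539, 527 and 516 CPM, against 389, 429, 443 and 366 CPM in fasted LKO libraries S44 to S47, again without overlap. The log2 difference was -0.45 (SE 0.12, edgeR adjusted p = 0.0220), and this call was lost without S40 (edgeR adjusted p = 0.0745), S44 (0.0621) or S47 (0.0545). In refed liver Fetub was 443 to 524 CPM in control and 329 to 482 CPM in LKO. That refed difference, -0.34 (SE 0.12, edgeR adjusted p = 0.130), was called only without S53, the highest refed LKO library, where it was -0.48 with an edgeR adjusted p of 0.0229. The summed level of the 8 hepatocyte markers was 70324 to 78080 CPM in fasted control and 59308 to 67756 CPM in fasted LKO libraries. With edgeR 2 of 8 (Ttr and Serpina1c) were called lower in LKO, where 12.2% of all genes tested were called. At an unadjusted p under 0.05 there were 5 of 8, and the median log2 difference of the 8 was -0.40. Alb made up 56.9 to 68.1% of that sum in fasted libraries, and without Alb the groups overlapped (23159 to 26269 and 21596 to 26473 CPM). Not every marker was lower: Apoa1 averaged 11046 and 14275 CPM and Apob 2695 and 3059 CPM in fasted control and LKO, neither called. In refed liver the median over the 8 markers was -0.31, and 0 of 8 were called with edgeR (3 at an unadjusted p under 0.05, 0 with limma-voom, and 2 with DESeq2, of which Apoa1 was higher and Cps1 lower in LKO). Their part in the Ahsg and Fetub results was not tested.

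Lect2 (ENSMUSG00000021539, minus strand, chr13:56690277-56696315), a hepatokine linked to insulin resistance in muscle, split the fasted LKO libraries. It stood at 74.3, 154, 68.0 and 156 CPM in S44 to S47, against 135, 178, 157 and 193 CPM in fasted control libraries S40 to S43. S44 and S46 were below every control library, while S45 and S47 lay within the control range. The fasted genotype difference of -0.55 (SE 0.22) was not called (edgeR adjusted p = 0.114), and was called without S45 (-0.75, edgeR adjusted p = 0.0350) or S47 (-0.75, edgeR adjusted p = 0.0368). After refeeding Lect2 was 177 to 224 CPM in control and 180 to 218 CPM in LKO, and the refed genotype difference was 0.01 (SE 0.22, edgeR adjusted p = 0.990). Lect2 rose on refeeding in LKO liver by 0.82 (SE 0.22, edgeR adjusted p = 0.0167) without overlap, a call lost without S44 (edgeR adjusted p = 0.0512) and in the fit of the 8 LKO libraries alone (0.0566). In control liver the change on refeeding was 0.26 (SE 0.22, edgeR adjusted p = 0.466).

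Creb3l3 (ENSMUSG00000035041, minus strand, chr10:80920158-80934708), the transcription factor of the group, was not called between genotypes. Fasted controls S40 to S43 measured 626, 623, 593 and 531 CPM, and fasted LKO liver gave 691, 586, 776 and 572 CPM in S44 to S47. After refeeding it was 500, 403, 494 and 579 CPM in control libraries S48 to S51 and 450, 518, 505 and 479 CPM in LKO libraries S52 to S55. The genotype groups overlapped in both states, with log2 differences of 0.14 in fasted liver (SE 0.12, edgeR adjusted p = 0.468) and -0.02 in refed liver (SE 0.12, edgeR adjusted p = 0.964). In LKO liver all refed libraries lay below all fasted ones, and Creb3l3 fell on refeeding by 0.43 (SE 0.12, edgeR adjusted p = 0.0179), which was no longer called without S46 (edgeR adjusted p = 0.0607) or S52 (0.0602). In control liver the change on refeeding was -0.26 (SE 0.12, edgeR adjusted p = 0.135). These are transcript levels, and the cutting of the protein that activates it was not measured.

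Angptl6 (ENSMUSG00000038742, minus strand, chr9:20785104-20791023) and Fgl1 (ENSMUSG00000031594, minus strand, chr8:41644471-41668193) are fibrinogen-domain proteins: Angptl6 encodes angiopoietin-related growth factor, which counters obesity in mice, and Fgl1 encodes hepassocin, a hepatocyte growth factor that is also a ligand of LAG3. Neither was called in any of the 5 tests. Angptl6 stayed between 9.44 and 21.1 CPM, both of those values coming from refed control libraries, and its log2 differences between genotypes were -0.10 in fasted (SE 0.20, edgeR adjusted p = 0.797) and -0.20 in refed liver (SE 0.20, edgeR adjusted p = 0.656). Fgl1 ranged from 330 to 510 CPM in fasted control, 207 to 539 CPM in fasted LKO, 248 to 456 CPM in refed control and 203 to 396 CPM in refed LKO libraries. Its genotype difference was -0.06 in fasted liver (SE 0.27, edgeR adjusted p = 0.919) and -0.48 in refed liver (SE 0.27, edgeR adjusted p = 0.364). Differences within these errors could not be detected with 4 libraries a group, and the groups are not shown to be alike.

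Ranked by mean level, fasted LKO came first for Fgf21, Inhbe and Creb3l3, fasted control for Gdf15, Angptl6, Fgl1, Fetub and Ahsg, and refed LKO for Enho and Lect2. Only the step from fasted LKO down to the next group, refed LKO for Fgf21 and fasted control for Inhbe, separated neighbours in this order without overlap of libraries. All other neighbours overlapped. The median log2 difference of the 10 genes between genotypes was -0.13 in fasted and -0.00 in refed liver, beside 0.02 and -0.01 for all genes tested. On refeeding it was -0.25 in control and -0.18 in LKO liver, beside 0.01 and -0.02, and 9 and 7 of the 10 genes had a negative log2 change. Among all genes tested, 51.1% in control and 47.9% in LKO liver had a positive one. Of the 9 in control only Gdf15 was called, and Angptl6 and Fgl1 changed sign in fits without 1 library.

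Fgf21 and Inhbe went together from library to library. Of the 9045 genes compared, Inhbe had the highest Pearson r with Fgf21 in log2 CPM over the 16 libraries, 0.90, followed by Ube4b (0.89) and Hmgb3 (0.89). Unnamed and predicted genes were not among those compared. By Spearman rho over the same 16 libraries, Ube4b (0.94) stood above Inhbe (0.85) and Hmgb3 (0.84). These libraries span 4 groups, which by itself ties genes that respond alike. After each group's mean was subtracted, r between Fgf21 and Inhbe was 0.78 (Spearman rho 0.75, 16 libraries) and 0.80 without the 2 libraries farthest from the median of Fgf21 on that scale. Fgf21 and Gdf15, both stress hormones, had an r of 0.42 within groups (rho 0.29). Library S49 was the lowest of refed control in Fgf21, Gdf15, Inhbe, Fgl1, Fetub and Creb3l3, and S42 was the lowest of fasted control in Fgf21, Gdf15, Inhbe, Angptl6 and Enho. These correlations are descriptions over libraries that share their scaling and were not tested.

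**Figure D3:**
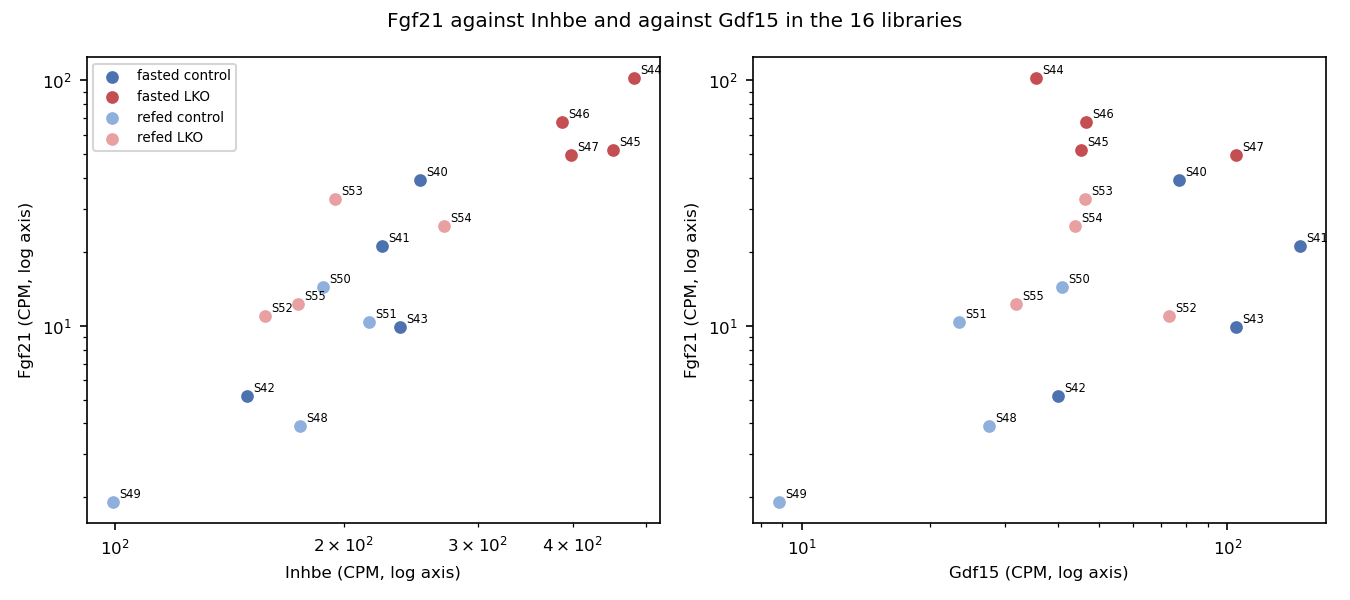
Fgf21 (vertical log axis, CPM) against Inhbe (left) and Gdf15 (right, horizontal log axes, CPM), 1 point for each of the 16 libraries, coloured by group and named. The fasted LKO libraries are at the top right for Inhbe, at 388 CPM or more, and S49 is at the bottom left in both panels.

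Fgf21 and Creb3l3 had an r of 0.63 within groups (rho 0.68), and Lect2 and Creb3l3 an r of -0.71 (rho -0.75), which was -0.54 without the 2 libraries farthest from the median of Lect2 on that scale. S44 and S46, the 2 fasted LKO libraries low in Lect2, were the 2 highest in Creb3l3. Enho and Ahsg had an r of 0.67 within groups (rho 0.65). Over the 16 libraries without subtraction of group means, the gene most like Inhbe among those compared was Plin2 (r = 0.93), which encodes a coat protein of lipid droplets. The genes most like the others were Mboat7 for Gdf15 (r = 0.85), Sri for Enho (0.86), Igfbp4 for Ahsg (0.89), Cd302 for Fetub (0.89), Cutal for Lect2 (0.98), Oplah for Creb3l3 (0.94), Ecm1 for Angptl6 (0.92) and Lrg1 for Fgl1 (0.83).

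Of 12 receptors of these hormones tested in liver, edgeR, DESeq2 and limma-voom called 0 between genotypes in either state, and 3 had an unadjusted p under 0.05 in fasted and 0 in refed liver with edgeR. Of all genes tested, edgeR called 12.2% between fasted and 3.63% between refed genotypes. Klb, the FGF21 co-receptor beta-Klotho, averaged 15.1 ± 2.52 CPM in fasted control and 17.3 ± 4.52 CPM in fasted LKO liver (SD, n = 4). It fell on refeeding in LKO liver by 0.72 (SE 0.17, edgeR adjusted p = 0.00621), as did Insr, the insulin receptor that fetuin-A inhibits, by 0.39 (SE 0.10, edgeR adjusted p = 0.00913), and both calls held in all 8 fits without 1 library. Fgfr3 and Fgfr4 were called higher and Acvr1b lower in the same comparison, each losing the call in 4 or more of 8 such fits. On refeeding in control liver edgeR called Acvr1b alone, lower, and in only 1 of 8 such fits, and DESeq2 called Klb as well. On refeeding edgeR thus called 5 of the 12 in LKO and 1 in control liver, where it called 18.1% and 15.4% of all genes tested. Ret and Acvr1c, the GDF15 signalling receptor and an activin receptor of fat, were too low to test.

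Of the 8 activin-family genes tested, Inhbe was the only one called between fasted genotypes, with edgeR, DESeq2 and limma-voom. Of all genes tested, edgeR called 12.2% there. In refed liver 0 of 8 were called with edgeR, 0 at an unadjusted p under 0.05 and 0 with either other tool, where edgeR called 3.63% of all genes tested. Whether Inhbe differed from its relatives was not tested. Inhbc, which encodes the other liver-enriched activin subunit, had a genotype difference of 0.12 in fasted liver (SE 0.14, edgeR adjusted p = 0.652). Inhbc and Inhba rose on refeeding, where Inhbe fell or was not called. Inhbc rose by 0.91 in control (SE 0.14, edgeR adjusted p = 0.000989) and by 0.66 in LKO liver (SE 0.14, edgeR adjusted p = 0.00406), and Inhba by 1.54 (SE 0.25, edgeR adjusted p = 0.00124) and 1.27 (SE 0.25, edgeR adjusted p = 0.00217). All 4 of these calls held in all 8 fits without 1 library. On refeeding edgeR called 2 of the 8 genes in control and 3 in LKO liver, where it called 15.4% and 18.1% of all genes tested.

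Lists of genes around Fgf21 and Creb3l3 are given by their counts. Of all genes tested, edgeR called 12.2% between fasted genotypes and 3.63% between refed genotypes. It called 15.4% on refeeding in control and 18.1% on refeeding in LKO liver. Of 19 PPARA targets tested, 17 were called higher in fasted LKO liver (median log2 difference 0.78) and 6 in refed LKO liver (median 0.53, 10 called with DESeq2). On refeeding 10 of the 19 were called lower in LKO liver (median -0.53). In control 0 were called with edgeR (median -0.14, 4 at an unadjusted p under 0.05, 2 with DESeq2 and 1 with limma-voom). For the difference between genotype effects the median was -0.37, and edgeR called 0 of the 19 (6 at an unadjusted p under 0.05). DESeq2 called 1 for it, Pdk4, and limma-voom 0. Of 13 CREBH-related genes other than Fgf21 and Creb3l3, 5 were called higher in fasted LKO liver (median 0.36), among them the apolipoprotein gene Apoa4, by 1.96 (SE 0.36, edgeR adjusted p = 0.00272), and the lipid droplet gene Cidec, by 2.20 (SE 0.50, edgeR adjusted p = 0.00984). Of the same 5, Apoa5 and Mbtps2 were called in only 2 of 8 fits without 1 library, and Apoa4, Cidec and Apoc2 in all 8. In refed LKO liver 1 of the 13 was called, Apoa4, higher by 2.48 (SE 0.37, edgeR adjusted p = 0.00181), where Fgf21 was not called. Of 16 ATF4 and stress targets, edgeR called 1 higher in fasted LKO liver, the transcription factor gene Atf5 by 0.98 (SE 0.20, edgeR adjusted p = 0.0041). In the same comparison 2 were called lower, the glutathione-degrading enzyme gene Chac1, by -2.14 (SE 0.49, edgeR adjusted p = 0.0102), and the lipoprotein receptor gene Vldlr, by -1.41 (SE 0.32, edgeR adjusted p = 0.00967). DESeq2 and limma-voom each called 4 of the 16, these 3 and Sesn2, which averaged 15.9 CPM in fasted control and 22.7 CPM in fasted LKO liver. The median of the 16 was -0.10 in that comparison, beside 0.02 for all genes tested. On refeeding 3 of the 16 were called lower in control liver, Atf5, Trib3 and Chac1 (median -0.37), where 15.4% of all genes were called. In LKO liver 3 were called lower, Atf5, Trib3 and Sesn2 (median -0.45), where 18.1% were called, and 0 were called higher in either. Trib3 fell by 2.29 in control (SE 0.39, edgeR adjusted p = 0.00153) and 2.43 in LKO liver (SE 0.38, edgeR adjusted p = 0.000433). Both Trib3 calls held in all 8 fits without 1 library, and that of Sesn2 in only 2.

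Of the markers of other cells, edgeR called Dcn, Jchain and Cidec higher and Alas2, Cfd and Cela1 lower in fasted LKO liver, and Jchain and Clec4g higher and Plin4 and Cela1 lower in refed LKO liver. Of all genes tested, it called 12.2% between fasted and 3.63% between refed genotypes. Cidec was also in the CREBH-related and PPARA lists, and the adipocyte markers Adipoq, Plin1, Lep and Retn were too low to test. Cela1 was the only 1 of 6 pancreas markers listed. Alas2 was the only 1 of 5 tested red blood cell markers called in fasted LKO liver. The summed level of the lymphocyte and plasma cell list was 5.18 to 8.79 CPM in fasted control and 16.8 to 35.4 CPM in fasted LKO libraries, and 4.62 to 6.37 CPM in refed control and 17.9 to 40.8 CPM in refed LKO libraries, with 1 of 7 tested genes called in each state by edgeR, the immunoglobulin joining chain gene Jchain. Jchain carried most of that difference: without it the sums were 3.62 to 7.0 and 4.99 to 8.93 CPM in fasted control and LKO libraries, and 3.19 to 4.15 and 5.58 to 9.15 CPM in refed ones. The refed sums without Jchain still did not overlap. Of the 7 genes, 2 in fasted and 5 in refed liver had an unadjusted edgeR p under 0.05, and DESeq2 also called Cd8a in refed liver. The Kupffer cell and macrophage list spanned 252 to 466 and 312 to 445 CPM in fasted control and LKO libraries, and 215 to 822 and 226 to 334 CPM in refed ones, with 0 of 8 called between genotypes by edgeR, DESeq2 or limma-voom (0 and 5 at an unadjusted edgeR p under 0.05). The part of these cells in the 10 genes' levels was not tested.

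Of the 11 calls among the 10 genes, 5 held in all fits that left out 1 library: Inhbe and Ahsg between fasted genotypes, Gdf15 on refeeding in control, and Inhbe and Enho on refeeding in LKO. The number of the 10 genes called in fasted liver was 2 without S44 and 5 without S45, in refed liver 0 without S48 or S55 and 2 without S53, and on refeeding in LKO 3 without S44, S46 or S52.

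**Figure D4:**
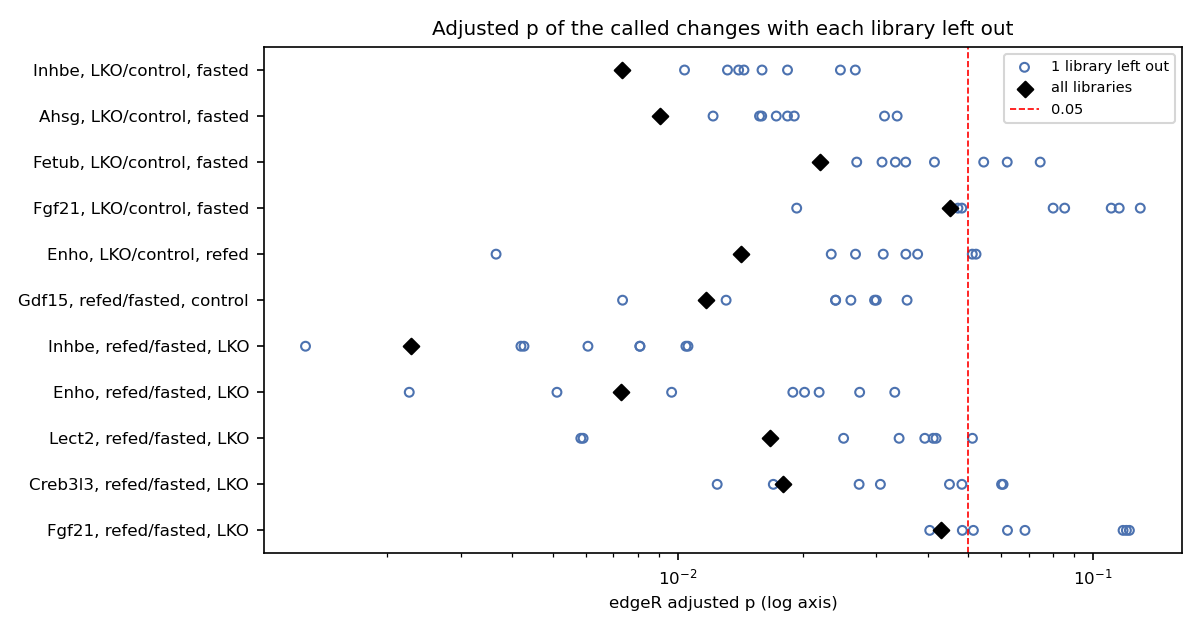
Adjusted p of edgeR (horizontal log axis) for each of the calls among the 10 genes, with all libraries (diamond) and with each of the 8 libraries of the comparison left out (circles). The dashed line is 0.05; the 2 Fgf21 changes have the most circles to its right, 5 and 6 of 8.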

How the data were processed

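mRNA of 16 whole-liver libraries was selected with poly-T beads and made into dUTP libraries, per the labels' protocols. Reads were aligned with HISAT2 2.0.5 to mm39, per the submitters' processing notes. The counting tool, its use of strand and the annotation are not given in the sources used here. The authors deposited 4 tables, each of 2 groups, with raw counts per gene and library, all whole numbers. The gene length in bases is also as deposited. The deposited tables give the authors' own log2 fold changes and adjusted p-values, which are not used in the text. Each library occurs in 2 tables, and its group is the heading those 2 share. Joining them by gene identifier gave 25803 genes. 0 counts differed between tables for a library, and 3148 genes missing from a library's tables were set to 0 there. 64 further columns of values per library were not used.

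Counts were fitted with edgeR 4.0.16 (R 4.3.3): TMM scaling (factors 0.941 to 1.07), filterByExpr over the 4 groups (14488 genes tested), 1 factor of 4 groups over all 16 libraries with no covariate, and quasi-likelihood F tests of 4 comparisons and their interaction. The SE is the absolute log2 fold change divided by the square root of F. The common biological coefficient of variation was 0.185. CPM used TMM-scaled totals, and log2 CPM for correlations had a prior count of 2 and covered genes with a mean of at least 5 CPM. Genes without a symbol and predicted genes (Gm and a number, or Rik) were left out of those correlations. The 10 genes, the gene lists and the markers were chosen with earlier results of these data known, so a list's counts are a description. Genes named are Cpt1a, the 10 genes, genes of those lists, and for each of the 10 the genes with the highest Pearson r. Alternatives were upper quartile and DESeq2 scaling, DESeq2 1.42.0, limma-voom (limma 3.58.1), a mean of at least 5 CPM, no filter, only the 2 groups compared, and each library left out. The fit was tested on simulated data. Promoter windows were matched by gene symbol. A planned comparison of protein sequences was not run.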

Additional observations from a re-analysis of the deposited data

Results flagged for a closer look

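Each of the 10 genes was examined in each of the 4 groups, 40 sets of 4 libraries, for a highest or lowest library whose gap to its nearest neighbour was a larger part of the group's range than Dixon's critical value allows. 3 sets had one, and chance gives about 1 in 20. Gdf15 was 104.9 CPM in fasted LKO library S47, where the next highest was 46.58 CPM. Fgl1 was 247.6 CPM in refed control library S49, where the next lowest was 420.9 CPM. Ahsg was 7939 CPM in fasted control library S40, where the next highest was 6768 CPM.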

How the results depend on the processing

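No paired analysis was possible because the table columns carry no replicate number. Outside the fits that left out a library, 337 of 340 results for the 10 genes kept their direction and their side of the threshold; the 3 exceptions are the Fgf21, Lect2 and Enho values given beside their results. With DESeq2, 924 genes were called between refed genotypes (526 with edgeR) and 467 for the difference between genotype effects (78 with edgeR), and 1 of the 10 genes, Enho, was called for that difference (0 with edgeR). Testing only genes of a mean of at least 5 CPM gave 197 genes for it. The cause was not tested. Without 1 library, the genes called ranged from 1048 to 1985 between fasted genotypes, 197 to 517 between refed genotypes, 1220 to 2483 on refeeding in control, 1795 to 2448 on refeeding in LKO and 8 to 282 for the difference. The same ranges among the 10 genes were 2 to 5, 0 to 2, 1 to 1, 3 to 5 and 0 to 0. Of 480 fits of the 10 genes without 1 library, 436 kept direction and side, 19 lost a call, 3 gained one and 22 changed sign, all in changes that were not called.

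The log2 values that changed sign without 1 library ranged as follows. For the difference between genotype effects, Angptl6 ranged from -0.27 to 0.080, Fetub from -0.034 to 0.17 and Fgf21 from -1.09 to 0.10. For refeeding in control liver, Angptl6 ranged from -0.19 to 0.16, Fgl1 from -0.11 to 0.15 and Cpt1a from -0.27 to 0.045. Between fasted genotypes, Enho ranged from -0.50 to 0.090 and Fgl1 from -0.27 to 0.15. Between refed genotypes, Creb3l3 ranged from -0.10 to 0.066 and Lect2 from -0.041 to 0.074. For refeeding in LKO liver, Gdf15 ranged from -0.51 to 0.20. The lowest count of any of the 10 genes in a library was 36, for Fgf21 in S49.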

Other observations

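Other factors that the liver secretes shifted in fasted LKO liver as well. Of 28 tested, 2 were called higher and 7 lower there, with a median log2 difference of -0.21, where 12.2% of all genes tested were called. In refed liver 1 of the 28 was called, where 3.63% of all genes were called. Among the lower ones were Manf, a secreted endoplasmic reticulum stress protein, at -1.64 (SE 0.23, edgeR adjusted p = 0.00042), Igfbp4, an IGF-binding protein, at -0.63 (SE 0.09, edgeR adjusted p = 0.000753), and Agt, the precursor of angiotensin, at -0.64 (SE 0.14, edgeR adjusted p = 0.00857). These 3 calls held in all 8 fits without 1 library. The list also holds Arsg, which encodes a lysosomal sulfatase and not a hormone, and which was higher in LKO by 1.5 (SE 0.18, edgeR adjusted p = 0.000238) in fasted and 1.21 (SE 0.18, edgeR adjusted p = 0.00183) in refed liver. The other gene called higher in fasted LKO liver was Igfbp1, by 1.66 (SE 0.49, edgeR adjusted p = 0.0352). That Igfbp1 call held in only 2 of 8 fits without 1 library, and limma-voom did not make it (adjusted p = 0.111).

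On refeeding, 5 of the 28 were called higher and 4 lower in LKO liver, and 3 higher and 2 lower in control liver. Of all genes tested, 18.1% were called in LKO and 15.4% in control liver. In LKO liver Manf rose by 2.01 (SE 0.23, edgeR adjusted p = 5.3e-05), Angptl8, a feeding-induced secreted factor, by 2.49 (SE 0.60, edgeR adjusted p = 0.00882), Tsku, a secreted proteoglycan, by 2.15 (SE 0.41, edgeR adjusted p = 0.002) and Nampt, an NAD-synthesis enzyme found in blood, by 1.03 (SE 0.15, edgeR adjusted p = 0.000234). Igfbp1, a fasting-induced IGF-binding protein, fell by 2.53 (SE 0.51, edgeR adjusted p = 0.00272). These 5 calls held in all 8 fits without 1 library. In control liver Nampt rose on refeeding too, by 0.81 (SE 0.14, edgeR adjusted p = 0.00226), in all 8 such fits, and Angptl8 by 1.77 (SE 0.58, edgeR adjusted p = 0.0487), in only 2 of 8. For Manf the genotype effects of the refed and the fasted state differed by 1.46 (SE 0.32, edgeR adjusted p = 0.0489), and that call held in only 2 of 16 fits without 1 library, with an edgeR adjusted p of up to 0.094.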
